A study of Mus musculus with 2 samples.

Results

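The epidermal differentiation complex (EDC) is a dense run of gene families on mouse chromosome 3 that encode the proteins of the cornified envelope, flanked by genes of the S100 calcium-binding family. The genes described here were the protein-coding genes of chromosome 3 in GENCODE whose symbols begin with Sprr, Lce, Flg or Tchh, are S100a with a number, or are Lor, Ivl, Hrnr, Rptn, Crnn or Crct1. This gave 59 genes of 43346 gene rows, namely 13 S100a genes, 15 Sprr genes, 21 Lce genes, 7 genes of the fused S100 type (Flg, Flg2, Hrnr, Rptn, Tchh, Tchhl1 and Crnn) and 3 single genes (Lor, Ivl and Crct1). Each of the 59 annotated genes had a row in both libraries. RNA came from facial prominences of B6NCrl mouse embryos at embryonic day 13.5 (E13.5), from healthy embryos of both sexes pooled, extracted with the Ambion mirVana kit, with no treatment or altered genotype named in the labels. The 2 libraries are numbered as biological replicates, were made from 10 ng of RNA each and form a single group, so levels in each library are what the design gives, and no test between conditions exists. They have separate biosample identifiers and share a donor identifier, so their spread covers biosample and library together.

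Stratified epithelium is built from a basal layer outward. Basal keratinocytes divide and carry keratins 5 and 14, suprabasal cells switch to keratins 1 and 10, and the outermost cells replace their membrane with a shell of loricrin, involucrin, small proline-rich (SPRR) and late cornified envelope (LCE) proteins crosslinked by transglutaminases. Filaggrin and its relatives bundle keratin in the last living layer. The embryo is also covered by periderm, a temporary outer layer that is later shed. S100 proteins are small EF-hand calcium sensors that bind annexins, myosins and other partners, and many of them are made well outside the epidermis. In whole tissue, fewer cells of a type and less RNA per cell cannot be told apart.

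Gene rows of the replicate 1 library summed to 28542452 expected counts, and those of replicate 2 to 22719352. A gene at 0 could still be present at up to 0.105 CPM (counts scaled to library size) in replicate 1 and 0.132 in replicate 2 (the level of 3 counts). Replicate 2 stood apart in genes of other organs. All 8 liver genes of a list (Alb, Afp and others) were over 2-fold higher in it, and their summed level was 15.6 TPM in replicate 1 and 378 in replicate 2 (TPM is a share of transcripts, corrected for length). The 8 heart genes summed to 7.41 and 67.8 TPM, with all 8 over 2-fold higher in replicate 2. Of all gene rows with a mean count of 10 or more, 4.85% were 2-fold higher in replicate 2. Some genes of both lists, such as Fgb (0 and 277 counts) and Myl2 (0 and 196), had that mean count only through replicate 2. A list of 24 genes of intestinal epithelium, chosen after values were seen, summed to 13.6 and 106 TPM. Both libraries had the basal keratinocyte genes (8 of 8 reached 1 TPM) and the mesenchyme genes (10 of 10), so genes of the surface epithelium and mesenchyme of the labelled tissue were present.

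The S100a genes held nearly all of the summed level of the 59 genes. Of the 59 genes, 11 reached 1 TPM in each library, and 10 of those 11 were S100a genes. Over all protein-coding genes the share at that level was 60.9%, so the 59 genes (18.6%) were below it and the S100a genes (76.9%) above it. At the other end, 30 of the 59 had no read in either library, against 17.1% of protein-coding genes. The summed level of the 59 genes was 1673 TPM in replicate 1 and 1704 TPM in replicate 2, and S100a genes made up 98.2% ± 0.462 of it (SD, n = 2 libraries). The median over members was 0 TPM, against 4.68 TPM for the mean of the libraries over all protein-coding genes.

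**Figure D1:**
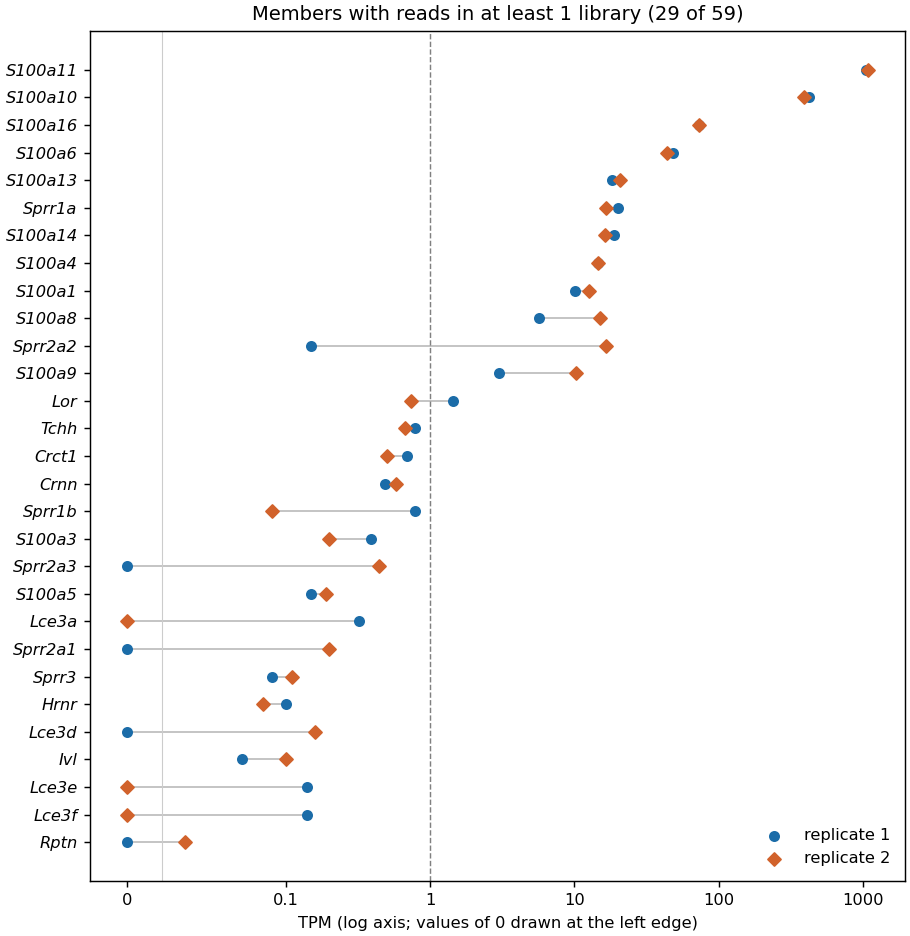
Level of the 29 members with reads in at least 1 library, in TPM on a log axis with values of 0 drawn at the left edge, for replicate 1 (circles) and replicate 2 (diamonds). The dashed line marks 1 TPM. The libraries lie close together for the S100a genes at the top and far apart for Sprr2a2 (0.15 and 16.6 TPM).

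S100a11 and S100a10 carried 86.4% ± 0.948 of the summed level. S100a11, whose protein binds annexin A1 and is abundant in keratinocytes and many other cells, was at 1038 TPM in replicate 1 and 1071 in replicate 2 (1054 ± 23.2), which ranked 73 among 21474 protein-coding genes. S100a10, the partner that ties annexin A2 into a complex at the cell membrane, was at 418 and 390 TPM and ranked 282. The order was the same in both libraries, with S100a11 2.48-fold and 2.75-fold above S100a10 and deposited 95% credibility intervals that did not overlap in either. Those intervals need not contain the TPM value itself (for S100a11 in replicate 1 the interval was 990 to 1032).

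Next came S100a16 at 72.4 and 73.0 TPM and S100a6 at 48.3 and 44.0 TPM. S100A6, also called calcyclin, binds the calcyclin-binding protein. S100a13, whose protein takes part in the release of signals that lack a secretion sequence, was at 18.2 and 20.5 TPM. S100a14, a gene of epithelia, was at 18.8 and 16.4 TPM. Steps down this order from S100a11 to S100a10, S100a16, S100a6 and S100a13 each had credibility intervals apart in both libraries. From S100a13 down (S100a13, Sprr1a, S100a14, S100a4, S100a1, S100a8, S100a9) no neighbours in the order were apart in both libraries.

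S100a4, a gene of motile and fibroblast-like cells, was at 14.5 TPM in each library (122 and 93 expected counts). S100a1, best known from heart and skeletal muscle and also made in cartilage, was at 10.1 and 12.7 TPM. Its level was 1.17 times as high in replicate 2, with a counting interval from 0.904 to 1.52 that includes 1. Median log2 ratios of replicate 2 to replicate 1 were 2.65 for heart genes, 0.40 for chondrocyte genes and -0.34 for skeletal muscle genes. The part of RNA of heart, cartilage or skeletal muscle in the S100a1 ratio was not tested. Of the other S100a genes, S100a8 and S100a9 passed 1 TPM in each library and are described with the library differences, and 3 had few reads or none. S100a3 had 5 and 2 expected counts, S100a5 had 1 in each library, and S100a2 had none. S100a3 shares 17.1% of its 30-base words with S100a4, but the deposited posterior SD of its count was 0 in both libraries. Its level is uncertain because its counts are few.

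Among pairs chosen for known relations, S100a6 exceeded S100a4, its neighbour but for S100a5, by 1.67 ± 0.09 on the log2 scale (SD, n = 2) and S100a10 exceeded S100a6 by 3.13 ± 0.02. S100a16 exceeded S100a14 by 2.05 ± 0.15, and S100a1 was below S100a13, which starts beside it on the opposite strand (-0.77 ± 0.10). Intervals were apart in both libraries for each of these 4 pairs, and for 19 of all 22 pairs. S100a4 was 96.4-fold and 76.1-fold above S100a5, which rests on 1 count in each library.

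Most listed partners of the S100 proteins were expressed in the same whole tissue. In the list of annexins, receptors and other partners 14 of 15 genes passed 1 TPM in the 2 libraries alike, with a median of 52.8 TPM. Among all protein-coding genes 60.9% did. Whether the same cells express the partners and the S100a genes was not tested. Anxa2, the annexin bound by S100A10, was at 898 and 834 TPM, 2.15-fold and 2.14-fold the level of S100a10. Anxa1, the partner of S100A11, was at 127 and 156 TPM, and its log2 ratio to S100a11 was -2.91 ± 0.18. Anxa2 thus lay above its S100 partner gene and Anxa1 below. Cacybp, the calcyclin-binding protein gene, was at 164 and 196 TPM. Ager, the receptor RAGE for extracellular S100 proteins, was at 2.74 and 3.19 TPM, and Tlr4, the receptor bound by S100A8 with S100A9, was the gene under 1 TPM in both (0.65 and 0.81). Of the S100 genes on other chromosomes, the glial gene S100b was at 4.30 and 6.22 TPM, S100z at 2.82 and 2.78, and S100g at 0.37 and 0.16.

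Transcript shares were close between the libraries for S100a10, S100a4, S100a1 and S100a14. A single transcript held 99.8% ± 0.0197 of the level of S100a10 (S100a10-201) and 98.6% ± 1.96 of that of S100a4 (S100a4-201). For S100a14 the 1097-nt transcript S100a14-202 held 81.0% in replicate 1 and 80.9% in replicate 2. They differed for S100a9, where S100a9-201 held 100% in replicate 1 (26 counts for the gene) and 69.1% in replicate 2. For S100a16 the leading transcript was S100a16-202 in replicate 1 (47.2%) and S100a16-201 in replicate 2 (70.4%), 1127 and 1123 nt long. The gene level of S100a16 differed by less than 1 TPM between the libraries.

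**Figure D2:**
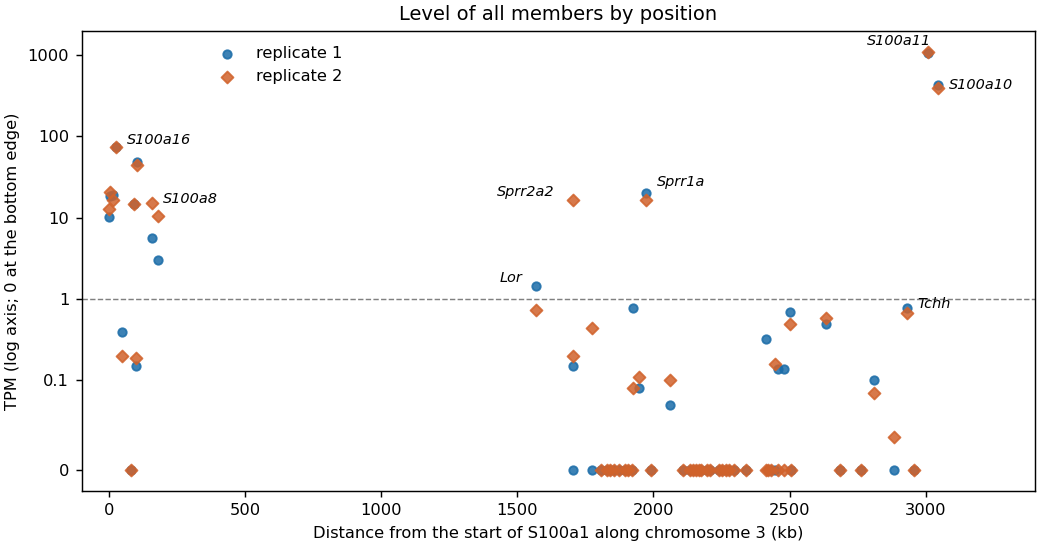
TPM of all 59 members (log axis, 0 at the bottom edge) against the distance of each gene's start from the start of S100a1 in kb, for replicate 1 (circles) and replicate 2 (diamonds). Levels above 10 TPM in both libraries lie in the 2 S100a blocks at the ends and at Sprr1a, and most genes in between are at 0.

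Summed levels differed between stretches of the locus. On GRCm38 the members span 3054 kb of chromosome 3, from 90511034 to 93564643. The first block holds 11 S100a genes in 185 kb (S100a1 to S100a9) and summed to 191 and 207 TPM. After a gap of 1385 kb follow the 46 genes from Lor to Tchhl1 in 1392 kb, which summed to 25.2 and 36.8 TPM. S100a11 and S100a10 lie 48.5 kb beyond, in 44.2 kb that summed to 1456 and 1460 TPM. Thus the 2 genes with the highest levels are adjacent to each other and lie beside the stretch with the lowest. Of 15 further protein-coding rows between the first and the last member, 1 reached 1 TPM in each library, Gm9774 (7.91 and 14.98 TPM), and 9 had no reads. Among rows that are not protein-coding, the processed pseudogene Gm4202 was at 40.7 and 124.9 TPM, above S100a16 in replicate 2. Expected counts were fractional for Gm4202 (546.26 and 1277.1) and Gm9774 (216.38 and 312.42), so some of their reads may belong to genes elsewhere. The skin peptidoglycan recognition gene Pglyrp3 had 18 counts in replicate 1 and 2 in replicate 2.

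Of the 46 envelope and fused-type genes, Sprr1a alone reached 1 TPM in each library. Sprr1a, which encodes a small proline-rich envelope precursor that is also made in periderm and in stressed cells, was at 20.1 TPM in replicate 1 and 16.6 in replicate 2 (300 and 189 expected counts). Its level was 0.771 times as high in replicate 2 (counting interval 0.639 to 0.928). Its near relative Sprr1b had 12 counts and 1 count (0.78 and 0.08 TPM), so Sprr1a was 25.7-fold and 207-fold above it. Neither gene shares a 30-base word with any other member. Lor, which encodes loricrin, the main protein of the mature envelope, had 51 and 20 counts (1.44 and 0.74 TPM). Ivl, the gene of the early envelope scaffold involucrin, had 2 and 3 counts. Crct1 had 9 and 5 counts.

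The promoters of 3 genes at different levels are shown because the families differ in the motifs just upstream of their start. Sequences are the 250 bases before the RefSeq start on GRCm38.p6, read 5′ to 3′ on the gene's strand. Capitals mark 3 motifs, each searched on both strands. The TATA box was searched as the letters TATAAA. The motif of AP-1, a factor family active in keratinocytes, was searched as TGAGTCA. The GC box was searched as GGGCGG. No match in these windows overlapped another. The windows are chr3:92485882-92486131 on the minus strand for Sprr1a, chr3:92083143-92083392 on the minus strand for Lor and chr3:93520246-93520495 on the plus strand for S100a11.
Sprr1a: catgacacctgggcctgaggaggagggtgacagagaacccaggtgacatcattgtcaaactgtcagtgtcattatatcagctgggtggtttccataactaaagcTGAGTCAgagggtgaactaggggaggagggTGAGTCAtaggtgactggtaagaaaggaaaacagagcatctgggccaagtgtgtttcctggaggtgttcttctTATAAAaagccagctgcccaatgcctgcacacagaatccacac
Lor: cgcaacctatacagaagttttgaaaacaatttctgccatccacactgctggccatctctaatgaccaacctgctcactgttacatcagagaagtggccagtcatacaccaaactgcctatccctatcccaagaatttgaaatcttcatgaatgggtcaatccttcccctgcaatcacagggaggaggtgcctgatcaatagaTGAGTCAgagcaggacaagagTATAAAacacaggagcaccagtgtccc
S100a11: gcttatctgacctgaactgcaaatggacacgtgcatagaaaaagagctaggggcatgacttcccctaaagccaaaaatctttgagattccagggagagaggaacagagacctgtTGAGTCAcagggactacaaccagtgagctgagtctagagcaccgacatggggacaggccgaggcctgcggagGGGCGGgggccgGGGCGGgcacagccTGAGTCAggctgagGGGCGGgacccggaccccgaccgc

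The Sprr1a window holds 2 AP-1 motifs and a TATA box, and the Lor window holds 1 of each. The window of S100a11, the most abundant member, holds 2 AP-1 motifs and 3 GC boxes. RefSeq promoters were found for 53 of the 59 genes (57 windows). The TATA box occurred in 40.4% of the 57 windows and in 12.4% of all 32851 promoter windows, the AP-1 motif in 19.3% and 4.46%, and the GC box in 8.77% and 32.7%. Among 14 Sprr windows 10 held a TATA box and 8 an AP-1 motif, whereas of 20 Lce windows 4 held a TATA box and 0 an AP-1 motif. Of 14 S100a windows 4 held a GC box, against 1 of the 43 windows of the other members. Only 1 of the 14 S100a windows, that of S100a11, held an AP-1 motif. A match describes letters in a window and is not a shown binding site.

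The late genes of the cornified layer were not detected or nearly so. Of the 21 Lce genes 17 had no read in either library, and the 4 others (Lce3a, Lce3d, Lce3e and Lce3f) had at most 3 counts in a library and none in the other. Flg and Flg2, the filaggrin genes, had no reads, nor did Tchhl1. Among the other fused-type genes, Tchh, which encodes trichohyalin of the hair follicle sheath and the tongue, had 95 and 62 counts, which over its long transcript gave 0.78 and 0.67 TPM. Crnn, the cornulin gene of oral and oesophageal epithelium, had 12 and 16 counts (0.49 and 0.58 TPM). The hornerin gene Hrnr had 23 and 12 (0.10 and 0.07 TPM), and the repetin gene Rptn had 0 and 1. Of the 15 Sprr genes 9 had no read in either library. At 0 counts, the upper credibility bound of TPM in replicate 2 was 1.36 for Sprr4, 1.26 for Lce1m and 1.02 for Sprr2h. For these genes 0 reads therefore did not exclude 1 TPM.

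Genes of the earlier steps of stratification were higher. The basal list had a median of 38.5 TPM, led by Krt14 at 507 and 444.2 TPM and Krt5 at 375 and 310. Periderm and simple epithelium genes had a median of 30.3 TPM (9 of 10), with Krt17 at 121 and 143 and Sfn at 107 and 100. The suprabasal list had 6 of 8 genes and a median of 14.9 TPM, with Krtdap at 95.3 and 55.6, Krt1 at 40.1 and 23.04 and Krt10 at 24.9 and 17.3. Krt14 exceeded Krt10 by 4.52 ± 0.24 (log2), and Krt10 in turn exceeded Lor by 4.33 ± 0.31. Envelope and plaque genes on other chromosomes reached 1 TPM in 10 of 15 cases, with a median of 4.05 TPM, including the envelope plaque genes Ppl (6.15 and 5.88 TPM) and Evpl (3.64 and 3.94). Evpl exceeded Ivl by 5.74 ± 0.63, with Ivl at 2 and 3 counts.

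Enzymes and regulators of the envelope were present in part. The crosslinking enzyme gene Tgm1 was at 3.12 and 2.79 TPM and Tgm3 at 0.23 and 0.06, and in the list of crosslinking and lipid genes 3 of 8 passed 1 TPM in each library. The others of these 3 were the fatty acid elongase gene Elovl4 at 18.4 and 17.2 TPM and the ceramide synthase gene Cers3 at 5.88 and 5.59. By contrast, all 18 listed regulators were detected (median 11.9 TPM). They include Trp63 at 45.0 and 44.2 TPM, the master factor of stratified epithelium, Grhl3 at 19.0 and 20.0 and Klf4 at 17.0 and 16.3.

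**Figure D3:**
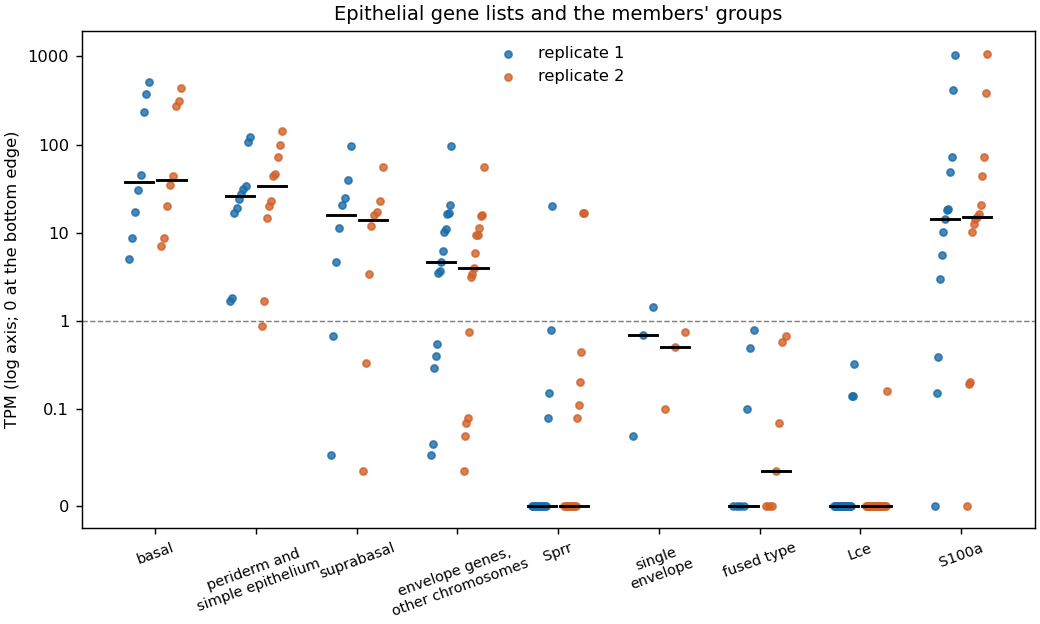
TPM (log axis, 0 at the bottom edge) of every gene in 4 epithelial lists and in the 5 groups of members, in replicate 1 (blue) and replicate 2 (orange), with black bars at the median of each library. Medians lie above 10 TPM for the basal, periderm and suprabasal lists and for the S100a genes, and at 0 for the Sprr and Lce genes in both libraries.

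The libraries differed in a few members. Among the 16 members whose expected count averaged 10 or more, 4 differed at least 2-fold, against 6.27% of 17707 gene rows at that count. Of these 4, Sprr2a2, S100a9 and S100a8 were higher in replicate 2 (4.85% of all rows were) and Lor was lower (1.42%). Sprr2a2 (2 and 166.6 counts) passed the count of 10 only through replicate 2, the library where it is high. The median log2 ratio of replicate 2 to replicate 1 was -0.08 over the 16 members and -0.02 over all rows. With 1 library on each side this compares 2 libraries, and intervals cover counting error only. Reads lacking molecular identifiers may be copies of the same molecule, so the intervals may be too narrow even for counting error.

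**Figure D4:**
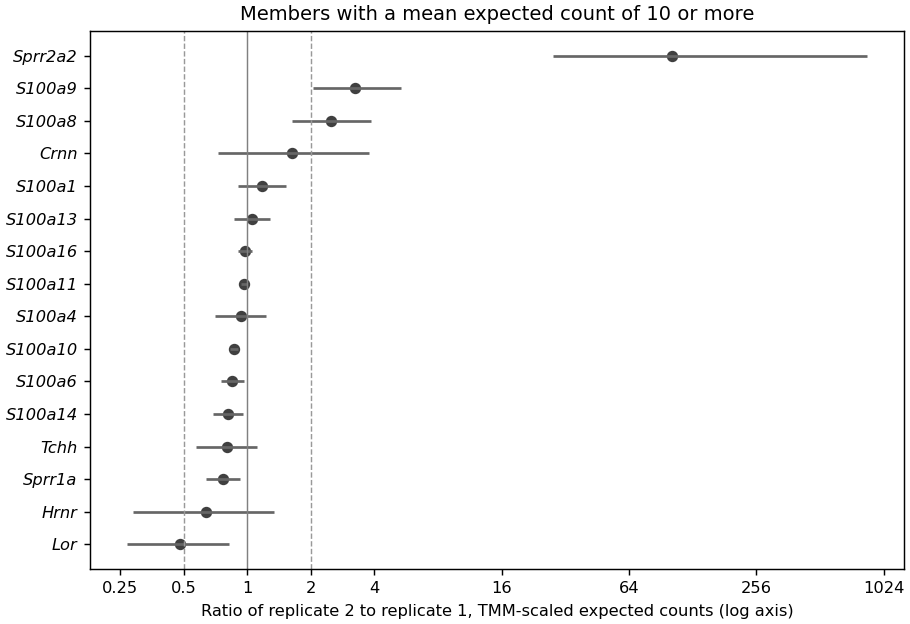
Ratio of replicate 2 to replicate 1 in TMM-scaled expected counts (log axis) with exact 95% counting intervals, for the 16 members whose expected count averaged 10 or more. Dashed lines mark 2-fold. Intervals of Sprr2a2 and S100a9 lie wholly above 2-fold, and those of 7 members include 1.

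Sprr2a2 had the greatest difference of the 16. Its expected count was 2 in replicate 1 but 166.6 in the other library (0.15 and 16.6 TPM), a ratio of 102 with a counting interval from 27.9 to 851. In replicate 2 it made up 45.0% of the level of the 46 genes without S100a, equal to Sprr1a, and in replicate 1 it made up 0.595%. Sprr2a1 and Sprr2a3 had no reads in replicate 1 and 9.28 and 4.10 counts in replicate 2. Of the 30-base words of the Sprr2a2 transcripts 97.9% recur in Sprr2a1, and of those of Sprr2a3 74.1% do, so the split of reads among them is uncertain. The deposited posterior SDs of the counts in replicate 2 were 1.97 for Sprr2a2, 1.94 for Sprr2a1 and 0.34 for Sprr2a3. Summed over the copies the counts were 2 and 180 (ratio 110, interval 30.1 to 916). The other Sprr2 genes had no reads in either library. The likeness of the copies reaches the sequence before their RefSeq starts. The 250 bases before the start of Sprr2a2 (chr3:92250397-92250646, plus strand, GRCm38.p6), shown as the shared upstream sequence of the copies, are the same in all 250 positions before Sprr2a1, and 222 of them recur in 1 run before Sprr2a3. None of the 3 motifs occurs in this window. In each library 100% of the Sprr2a2 level was assigned to the 722-nt transcript Sprr2a2-202. Whether the window lies just before that transcript was not checked.
Sprr2a2: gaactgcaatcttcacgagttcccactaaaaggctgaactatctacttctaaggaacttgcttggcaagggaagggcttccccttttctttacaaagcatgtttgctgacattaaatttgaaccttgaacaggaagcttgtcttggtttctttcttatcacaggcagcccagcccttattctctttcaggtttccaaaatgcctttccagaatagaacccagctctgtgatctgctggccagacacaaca

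Most genes of the intestinal list, and all of the liver and heart lists, were also higher in replicate 2. The list of intestinal epithelium genes was chosen after values were seen. At a mean count of 10 or more, 16 of 19 were over 2-fold higher in replicate 2, against 4.85% of all gene rows. Genes with no read in replicate 1, such as Fabp6, passed that count through replicate 2 alone. Of the 24, 13 had no read in replicate 1 against 0 in replicate 2. Fabp6 went from 0 to 125 counts, Reg3b from 0 to 126 and Zg16 from 0 to 103. The defining intestinal factor gene Cdx2 had 0 and 15 counts. Of the epithelial lists, the basal genes had a median log2 ratio of -0.03 with 0 of 8 past 2-fold, and the suprabasal genes one of -0.63 with 1 of 7 past 2-fold, Krt77, which was lower (0.68 and 0.33 TPM). The periderm and simple epithelium genes had a median of -0.10, with the simple epithelium keratin gene Krt8 over 2-fold higher (31.6 and 72.2 TPM) and Krt13 over 2-fold lower (1.67 and 0.87 TPM). The part of RNA of other organs or other epithelia in the Sprr2a2 difference was not tested.

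S100a8 and S100a9, which encode the subunits of calprotectin in neutrophils and other myeloid cells, were both higher in replicate 2. S100a8 was at 5.65 and 15.02 TPM (35 and 71 counts, ratio 2.48, interval 1.63 to 3.84). S100a9 was at 2.98 and 10.3 TPM (26 and 69 counts, ratio 3.25, interval 2.04 to 5.31). Of 12 neutrophil granule genes 7 were at a mean count of 10 or more. Of these 7, 5 were over 2-fold higher in replicate 2, against 4.85% of all gene rows. Elane (2 and 19 counts), Camp (8 and 28) and Ltf (7 and 47) passed that count only through replicate 2. The highest genes of the list did not pass 2-fold. Mmp9 was at 12.6 and 18.5 TPM (log2 ratio 0.43), and Prtn3 was at 6.41 and 5.65 TPM (log2 ratio -0.27). Of those past 2-fold, Ngp was at 0.89 and 6.02 TPM, Camp at 0.76 and 3.47 and Mpo at 1.45 and 4.74, while Ly6g had no read in either library. The list summed to 22.6 and 41.7 TPM. None of the 12 macrophage genes was past 2-fold, with a median log2 ratio of 0.05 and sums of 155 and 167 TPM. The part of neutrophil RNA in the S100a8 and S100a9 difference was not tested.

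Lor was lower in replicate 2, at 0.480 times the level in replicate 1 (interval 0.271 to 0.819). Sprr1b, at 12 counts and 1 count, had a ratio of 0.102 (interval 0.00239 to 0.689) but a mean count under 10. Of the 8 suprabasal genes, 7 also had a lower TPM in replicate 2, and the list's median log2 ratio was -0.63. The suprabasal sum was 197 and 127 TPM, while the basal sum was 1224 and 1142. With other scalings the log2 ratio of Lor lay between -0.99 and -0.48, short of 2-fold, with gene-row totals, spike-in totals, a prior count of 5 or TPM. The part of suprabasal cells in the Lor difference was not tested.

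**Figure D5:**
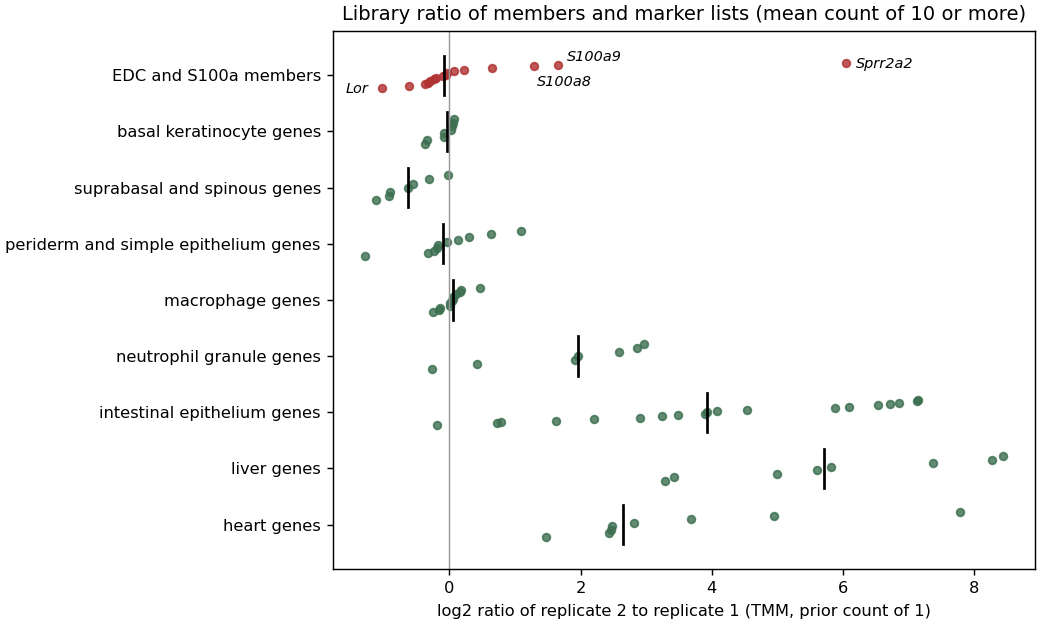
Log2 ratio of replicate 2 to replicate 1 (TMM scaling, prior count of 1) of the 16 members and of genes in 8 marker lists whose count averaged 10 or more, with black bars at the medians. All liver and heart genes lie above 1, and some of them, such as Fgb and Myl2, passed the count of 10 only through replicate 2. Sprr2a2 (6.05) lies within the ranges of the intestinal, liver and heart genes alike, and S100a9 (1.66) within those of the neutrophil, intestinal and heart genes. The intestinal list was chosen after values were seen.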

How the data were processed

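Total RNA-seq of 2 libraries was used. Assembly mm10 and GENCODE M4 are named in the submitters' processing notes, and the aligner, the quantifier and whether strand was kept are not given in the sources used here. The deposited expected counts, and posterior means of them, are estimates of reads per gene or transcript by the authors. The deposited TPM and FPKM values are scaled by length and library, with spike-in rows in the TPM total (13.4% and 9.68% of it). The upper credibility bounds of TPM are a deposited signal, the posterior SDs of counts a deposited score, and the isoform percent columns the authors' transcript shares. Effective length, per the deposited tables, is transcript length minus 99 nt.

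Symbols came from GENCODE M21 on GRCm38 by identifier without version (42462 rows matched, 884 not), and promoters from RefSeq (GRCm38.p6). Members, gene lists, pairs and alternatives were chosen with earlier results of these data known. Spike-in rows (6.27% and 4.45% of counts) and rows without a gene identifier (0.000171% and 0.000151%) stayed out of tests. Counts were rounded for library ratios, which were scaled by TMM (edgeR 4.0.16, R 4.3.3) or, alternatively, DESeq2 1.42.0 size factors. Log2 ratios used a prior count of 1. Intervals of ratios are exact Clopper-Pearson at 95%, from scipy 1.17.1 in Python 3.11.15, and no p-value is given. Ratios were tested on simulated data. Named were members at 1 TPM or more in either library, members of a pair, members past 2-fold, the highest member under 1 TPM of each group and the highest genes of each list. Further genes, among them Pglyrp3 and those of the intestinal list, were named after their values were seen. The values of 1 listed gene are not reported here. Neighbours in the order of levels, or a pair, were called apart where the deposited credibility intervals did not overlap in either library. Alternatives were other thresholds, units, scalings, prior counts and each library alone.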

Additional observations from a re-analysis of the deposited data

How the results depend on the processing

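At a threshold of 0.1 TPM 18 members were detected in both libraries in place of 11. For the 46 members without S100a genes the count of 1 became 6 at 0.1 TPM, 4 at 0.5 TPM and 5 at 10 or more expected counts, and was 2 in each library alone (Sprr1a with Lor in replicate 1 and with Sprr2a2 in replicate 2). With expected counts not divided by length, S100a genes held 96.8% and the 4 highest members 91.2%, in place of 98.2% and 93.4%. The count of members past 2-fold between libraries was 12 with no filter on low counts and 2 at a mean count of 50 or more, in place of 4. It stayed at 4 with the Sprr2a copies summed, an alternative chosen after seeing the data. With spike-in totals the median log2 ratio of all gene rows moved to 0.54, and 14 named members in place of 6 lay above 0. There too 4 members passed 2-fold, with Crnn (log2 1.18) in and Lor (-0.48) out. The other 51 alternatives of these summary values moved a count by at most 1.5 times or a share by less than its SD. For a share, each of 2 libraries alone always lies within that SD of the mean. Those single-library alternatives therefore could not fail. No pair with intervals apart changed direction. The cause of these changes was not tested. No paired analysis was possible because both libraries belong to 1 group. Depth limits the members under about 10 counts, whose ratios have wide intervals.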
